A study of Mus musculus with 10 samples.

Results

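Glypicans and syndecans are the main cell surface carriers of heparan sulfate, and the 10 mouse genes of these families, *Gpc1* to *Gpc6* and *Sdc1* to *Sdc4*, were chosen by name from the 23080 genes of one bulk RNA-seq table. All 10 genes had a row in the table. The libraries came from the anterior fontanelle (AF) of mouse embryos at E18.5, a dissected mixture of bone and soft tissue from which the overlying skin and the brain had been removed. There were 5 control libraries, labelled WT, and 5 mutant libraries of the genotype Wnt1-Cre; Fgfr2fl/fl. In the latter the Wnt1 promoter drives Cre in neural crest cells, so that the floxed *Fgfr2* alleles are recombined in the mesenchyme they form and not in cells of other origin such as blood vessels and osteoclasts. The study calls the controls littermates, and the sources used here do not say whether they carried floxed alleles or Cre, nor the sex of any embryo.

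Heparan sulfate chains bind FGF ligand and FGF receptor together, and signaling through the receptor tyrosine kinase is weak without them. A glypican is held to the outer leaflet of the membrane by a lipid (GPI) anchor and has no cytoplasmic part, whereas a syndecan spans the membrane and binds adaptor proteins inside the cell. Glypicans also bind WNT, BMP and hedgehog ligands, and in skeletal tissue the loss of *Gpc3* function is known from an overgrowth syndrome and that of *Gpc6* from short-limbed dysplasia.

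Positions are on GRCm38. *Gpc4* (chromosome X, 52053021 to 52165252) and *Gpc3* (chromosome X, 52272426 to 52613950) are neighbours on the minus strand, 107173 bases apart with 0 annotated genes between them. *Gpc5* (chromosome 14, 115092215 to 116525179) and *Gpc6* (chromosome 14, 116925315 to 117976544) are neighbours on the plus strand, 400135 bases apart with 1 annotated gene between them, which does not code for protein. *Gpc1* lies on chromosome 1 (92831645 to 92860779), *Gpc2* on chromosome 5 (138273655 to 138280005), *Sdc1* on chromosome 12 (8771323 to 8793715), *Sdc2* on chromosome 15 (32920723 to 33034935), *Sdc3* on chromosome 4 (130792537 to 130826319) and *Sdc4* on chromosome 2 (164424247 to 164443887). Counts are per gene, and the exons and the strand setting used in counting were not stated. *Gpc2* shares 2376 exon bases with *Gm43720* on the same strand, and *Gpc1* shares 977 with *Ankmy1* on the opposite strand, so their counts are uncertain to that extent. *Ankmy1* itself was at 0.399 ± 0.107 CPM in control-labelled libraries. *Sdc3* shares 48 and 415 exon bases with a pair of opposite-strand antisense genes, and *Gpc5* shares 107 with *Gm20713*.

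Promoter sequences (RefSeq gene starts, GRCm38.p6, 250 bases before to 50 after the start) were matched for 7 of the 10 genes. Those of the glypican and the syndecan with the highest level, of the glypican that stood highest in 1 library and of the glypican near the limit of detection are printed 5′ to 3′ on the strand of the gene, with CG dinucleotides in capitals. They lie at chrX:52613925-52614224 (minus), chr4:130792287-130792586 (plus), chr5:138279888-138280187 (minus) and chr14:115091965-115092264 (plus).
Gpc3: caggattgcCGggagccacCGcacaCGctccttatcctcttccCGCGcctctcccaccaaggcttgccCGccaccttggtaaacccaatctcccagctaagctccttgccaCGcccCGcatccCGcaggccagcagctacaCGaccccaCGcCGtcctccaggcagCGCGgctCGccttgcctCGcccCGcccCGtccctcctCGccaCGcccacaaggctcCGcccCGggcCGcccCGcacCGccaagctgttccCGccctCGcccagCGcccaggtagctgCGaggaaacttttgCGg
Sdc3: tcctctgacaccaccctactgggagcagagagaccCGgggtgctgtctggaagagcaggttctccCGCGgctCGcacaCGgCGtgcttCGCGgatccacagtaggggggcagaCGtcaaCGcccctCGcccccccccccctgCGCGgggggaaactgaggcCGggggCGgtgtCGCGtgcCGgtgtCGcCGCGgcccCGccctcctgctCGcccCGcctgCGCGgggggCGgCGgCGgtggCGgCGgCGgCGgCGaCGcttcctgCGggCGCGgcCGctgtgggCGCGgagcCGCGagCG
Gpc2: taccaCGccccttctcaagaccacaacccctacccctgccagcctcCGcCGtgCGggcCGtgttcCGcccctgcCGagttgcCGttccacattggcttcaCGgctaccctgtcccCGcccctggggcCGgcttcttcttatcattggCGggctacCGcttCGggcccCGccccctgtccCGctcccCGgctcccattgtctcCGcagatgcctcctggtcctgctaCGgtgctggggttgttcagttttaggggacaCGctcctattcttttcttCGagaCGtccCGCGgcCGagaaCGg
Gpc5: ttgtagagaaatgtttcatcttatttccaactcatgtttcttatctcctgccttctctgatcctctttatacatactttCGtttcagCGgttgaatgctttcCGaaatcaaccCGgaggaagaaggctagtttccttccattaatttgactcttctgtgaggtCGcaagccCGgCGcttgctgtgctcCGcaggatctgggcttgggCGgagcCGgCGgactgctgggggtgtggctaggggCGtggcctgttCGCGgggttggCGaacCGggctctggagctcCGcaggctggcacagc

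The *Sdc3* window held 44 CG dinucleotides, that of *Gpc3* 30, that of *Gpc2* 26 and that of *Gpc5* 17, against a median of 7 over 32851 promoters of the same length. GC content was 77.7% for *Sdc3*, 70.7% for *Gpc3*, 65.7% for *Gpc2* and 54.7% for *Gpc5* (median of all promoters, 52.7%). The GC box GGGCGG, read on both strands, was present in 7 of the 7 windows and in 35.7% of all promoters. The letters TATAAA, on either strand, were present in 1 of the 7, that of *Gpc5*, and in 13.6% of all promoters. CCAAT was found on either strand in 3 of the 7 and in 37.4% of all promoters. These are matches of letters and say nothing of binding.

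Depth and tissue were checked first. Estimated counts per library summed to between 21814198 and 28515434 in control-labelled and between 20774667 and 25748619 in mutant-labelled libraries. Ribosomal RNA genes made up 20.9% to 32.2% of these counts in control-labelled and 18.7% to 33.6% in mutant-labelled libraries. Values are given as CPM, counts scaled to a common library size after TMM normalization. The targeted gene *Fgfr2* was higher in the mutant-labelled libraries, at 318 ± 32.8 CPM against 199.5 ± 21.7 CPM (SD, n = 5 each; log2 fold change 0.67, adjusted p = 0.0487, edgeR quasi-likelihood). A count per gene does not separate recombined from intact transcripts, so it does not test the labels. The groups are named by label, and directions are those of the labels. Of 17 osteoblast markers 17 had a fitted change below 0 and 9 had an unadjusted p under 0.05, where over all genes tested 50.3% were fitted above 0 and 7.49% had such a p. Their mean log2 CPM ran from 8.82 to 9.18 under the control label and from 8.60 to 8.86 under the mutant label. Their summed CPM, from 107429 to 126448 and from 89400 to 128849, is mostly that of *Col1a1* and *Col1a2*, whose log2 fold changes were −0.048 and −0.016. The AF connective tissue markers (*Matn4*, *Mkx*, *Scx* and *Tnmd*) had 4 of 4 fitted changes above 0, each with an unadjusted p under 0.05, with sums of 148 to 179 CPM and of 199 to 278 CPM. Epidermal markers summed to 3.34 to 7.63 CPM in all libraries, and neuron markers to 59.8 to 455 CPM although brain had been removed. In bulk tissue, a change in the number of cells of a type cannot be told apart from a change in RNA per cell.

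One library was often at the edge of the range for these genes. Mutant-labelled replicate 2 had the lowest CPM of all 10 libraries for 6 of the 9 members tested (*Gpc1*, *Gpc3*, *Gpc4*, *Sdc1*, *Sdc2* and *Sdc4*) and the highest for *Gpc2*. Over all genes tested it was the lowest library for 14.8% and the highest for 17.9%. Its neuron markers summed to 455 CPM, against 212 CPM in the next highest library. By Dixon's test, 0 of 20 groups of 5 values (10 genes, 2 labels) held a value past the critical ratio of 0.71. The largest ratio was 0.692, for *Sdc3* in control-labelled replicate 5, and mutant-labelled replicate 2 reached 0.657 at most, for *Gpc2*. Mutant-labelled replicate 2 was picked after its values were seen. The difference of each member tested is given with and without it.

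Levels between genes were compared per exon length, as CPM per kb of exon. *Gpc3* stood highest in each of the 10 libraries, at 133 ± 13.8 CPM per kb under the control label and 144 ± 25.5 CPM per kb under the mutant label (SD, n = 5 each), above 98.8% of all genes tested. *Gpc1* followed at 73.1 ± 6.86 and 73.6 ± 7.40 CPM per kb, above 97.7% of genes. Together with the lower members this gave *Gpc3* 56.5% ± 3.10 of the glypican sum in control-labelled libraries and 57.7% ± 3.53 in mutant-labelled ones, and *Gpc1* 31.1% ± 2.84 and 29.8% ± 2.50.

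*Sdc3* led the syndecans, with 43.8 ± 4.47 and 44.4 ± 2.20 CPM per kb, or 37.2% ± 2.25 and 37.8% ± 2.02 of the syndecan sum. *Sdc2* (27.3 ± 0.507 and 28.01 ± 2.41 CPM per kb), *Sdc1* (24.7 ± 0.494 and 24.8 ± 2.21) and *Sdc4* (21.7 ± 1.595 and 20.6 ± 2.01) lay close together, so that syndecan transcript was spread over 4 genes more evenly than glypican transcript. *Gpc4*, at 21.5 ± 0.908 and 22.1 ± 1.90 CPM per kb, fell among them. *Gpc6* was at 5.54 ± 0.405 and 5.52 ± 0.984 CPM per kb and *Gpc2* at 2.04 ± 0.391 and 2.93 ± 1.41. *Gpc5* was lowest, at 0.042 ± 0.027 and 0.063 ± 0.039 CPM per kb.

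In this order the ranges over the 10 libraries of *Gpc3*, *Gpc1*, *Sdc3*, *Sdc4* and *Gpc2* lay wholly above that of the next gene. Those of *Sdc2* and *Sdc1*, *Sdc1* and *Gpc4*, *Gpc4* and *Sdc4*, and *Gpc6* and *Gpc2* overlapped, although within each of the 10 libraries *Sdc2* was above *Sdc1* and *Sdc1* above *Gpc4*. *Gpc4* was above *Sdc4* in 7 of 10 libraries, so these neighbours were not separated. *Gpc6* was above *Gpc2* in 9 of 10, the exception being mutant-labelled replicate 2. With the length of the longest annotated transcript in place of all exon bases, *Sdc1* moved above *Sdc2* and *Sdc4* above *Gpc4*, and the other 6 genes held their place. Summed over the family, glypicans ranged from 213 to 251.95 CPM per kb under the control label and from 197 to 281 under the mutant label, and syndecans from 108 to 121 and from 106 to 124, so the groups overlapped for both. The lowest glypican sum was that of mutant-labelled replicate 2, and the other 4 mutant-labelled sums, from 253 to 281 CPM per kb, were all above the control-labelled ones. This was not tested.

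**Figure D1:**
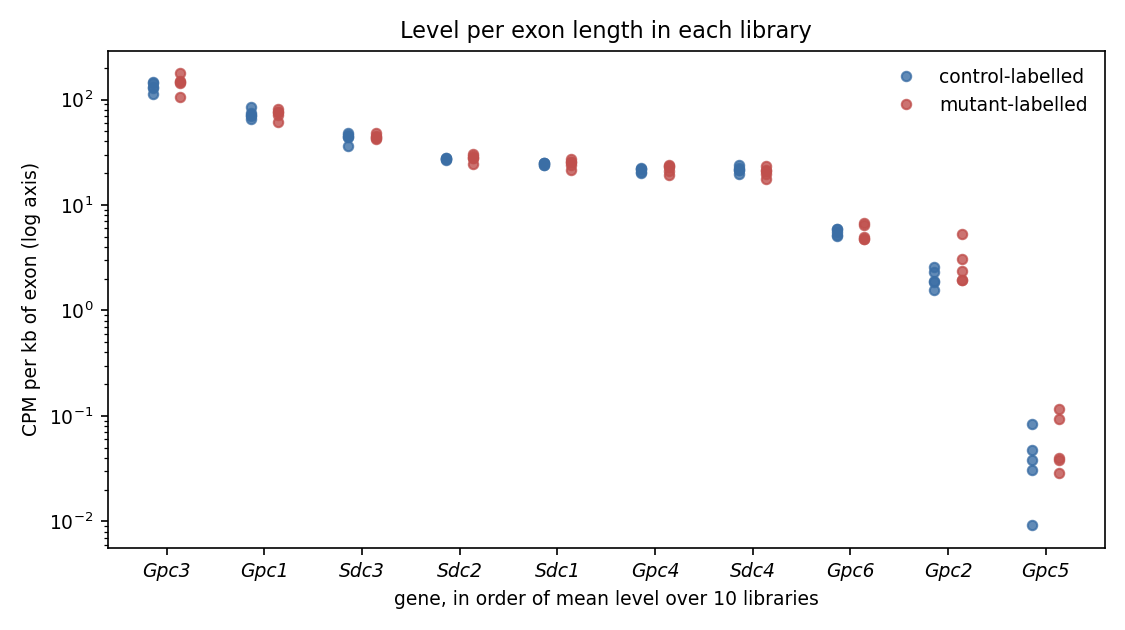
CPM per kb of exon (log axis) for each of the 10 genes in 5 control-labelled (blue) and 5 mutant-labelled (red) libraries, each point 1 library, in order of the mean over all libraries. The levels run from 139 CPM per kb for *Gpc3* to 0.053 CPM per kb for *Gpc5*, and for every gene the points of both labels overlap.

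The main comparison asked whether heparan sulfate carriers that act with FGF receptors differ between the labels. Of the 10 genes, 9 passed the expression filter (5 glypicans and 4 syndecans), and *Gpc5* did not. By edgeR's quasi-likelihood test, 0 of the 9 passed an adjusted p-value of 0.05, as against 3 of 16267 genes tested (0.0184%). Without adjustment, 0 of 9 again passed 0.05, where 7.49% of all genes tested passed. DESeq2's Wald test and limma's voom likewise gave 0 at an adjusted 0.05, and 1 (*Gpc2*) and 0 at an unadjusted 0.05. In 0 of the 9 genes did all libraries of one label lie to one side of the other, against 1.48% of genes tested. Of the 9, 7 were fitted above 0 and 2 below, but with scaling by library size alone *Gpc1*, *Sdc1*, *Sdc2* and *Sdc3* fell below 0, and with DESeq2's size factors *Gpc6* came above it. The median log2 fold change was 0.042 over the 5 glypicans and 0.016 over the 4 syndecans, beside 0.00073 over all genes tested.

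Leaving *Gpc2* aside, the 8 other genes had log2 fold changes between −0.081 and 0.12, and their 95% intervals lay between 0.844-fold and 1.30-fold of the control level. These limits are the lowest and highest over the 8 genes (*Sdc4* and *Gpc3*), and most single intervals were narrower, such as 0.918-fold to 1.11-fold for *Sdc1* and 0.938-fold to 1.13-fold for *Sdc2*. Without mutant-labelled replicate 2 the corresponding limits were 0.866-fold and 1.33-fold. Its removal moved the fitted change upwards for 8 of the 9 genes, *Gpc2* being the exception, and left 8 above 0 and 1 below. Of these 9 genes, 1 (*Gpc3*) then had an unadjusted p-value under 0.05, beside 6.79% of all genes in that fit, and in 1 (*Sdc2*) the labels did not overlap, beside 2.46%.

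**Figure D2:**
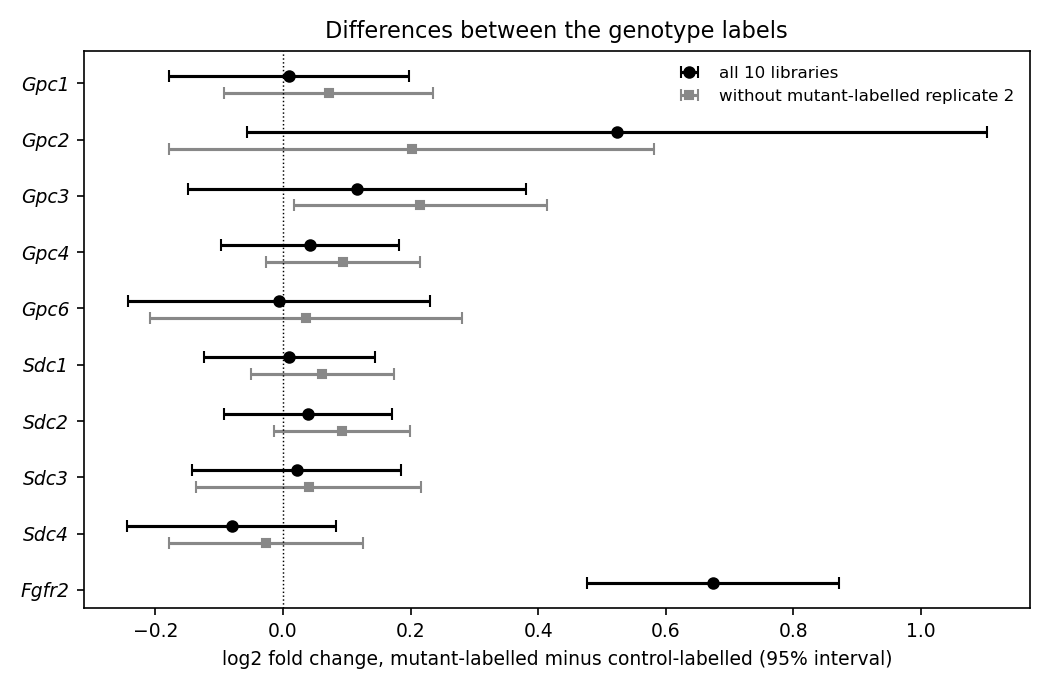
Log2 fold change (mutant-labelled minus control-labelled) with its 95% interval for the 9 genes tested, over all 10 libraries (black circles) and without mutant-labelled replicate 2 (grey squares), with *Fgfr2* for scale. With all libraries every glypican and syndecan interval includes 0, and the interval of *Gpc2*, from −0.056 to 1.10, is the widest.

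Among glypicans, *Gpc3*, which encodes the glypican that binds hedgehog and WNT ligands and restrains growth, was at 397, 352, 306, 343 and 389.5 CPM in control-labelled replicates 1 to 5, and at 391, 285, 404, 476 and 382 CPM in mutant-labelled replicates 1 to 5. The lowest and the highest of the 10 values were both in mutant-labelled libraries, and the control-labelled values lay between them. The log2 fold change was 0.12 (standard error 0.121, 95% interval −0.15 to 0.38, adjusted p = 0.861, edgeR quasi-likelihood; two-sided exact permutation test, p = 0.476). Without mutant-labelled replicate 2 it was 0.21 (interval 0.017 to 0.41), with an unadjusted p of 0.0362 and an adjusted p of 0.685 from the same test (0.685 to 0.9998 over the alternatives). Without mutant-labelled replicate 4, the highest library, it was 0.039, and without control-labelled replicate 3 it was 0.074. The AF connective tissue markers, which were all fitted higher by label, were not used as a covariate, and their part in this was not tested.

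*Gpc1*, the broadly expressed glypican known as an FGF co-receptor, was at 384, 433, 368, 363 and 338 CPM in control-labelled replicates 1 to 5 and at 394, 319, 394, 371 and 420.3 CPM in mutant-labelled ones. The means, 377 ± 35.4 and 379.7 ± 38.2 CPM (SD, n = 5 each), differed by much less than the spread, with a log2 fold change of 0.0099 (interval −0.18 to 0.20, adjusted p = 0.987, edgeR quasi-likelihood), and of 0.072 without replicate 2. *Gpc4*, which is expressed in progenitor cells and lies next to *Gpc3*, ranged from 53.8 to 59.4 CPM under the control label and from 51.1 to 63.2 CPM under the mutant label. Its log2 fold change was 0.042 (interval −0.097 to 0.18), or 0.093 without replicate 2 and 0.018 without mutant-labelled replicate 5, and with all libraries a change of more than 1.13-fold upwards was outside the interval.

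*Gpc6* ranged from 32.6 to 38.3 CPM in control-labelled libraries. In the mutant-labelled ones it fell into a higher pair, replicates 1 and 3 at 43.3 and 41.3 CPM, and replicates 2, 4 and 5 at 31.7, 30.4 and 30.5 CPM, on both sides of the control-labelled range. The coefficient of variation was 7.31% under the control label and 17.8% under the mutant label, and the log2 fold change was −0.0065 (interval −0.24 to 0.23), or 0.037 without replicate 2. *Gpc5*, a glypican of the brain, kidney and limb, was near the limit of detection, with 1 to 10 counts per control-labelled and 3 to 13 counts per mutant-labelled library. These amount to 0.186 ± 0.121 and 0.282 ± 0.174 CPM (SD, n = 5 each), which did not differ beyond the spread (two-sided exact permutation test, p = 0.325).

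*Gpc2*, a glypican of developing neurons, had the largest fitted difference of the 9 genes in the main comparison. It was at 8.08, 9.88, 10.9, 6.70 and 8.03 CPM in control-labelled replicates 1 to 5, and at 8.31, 22.7, 8.26, 13.2 and 10.2 CPM in mutant-labelled replicates 1 to 5. Replicates 2 and 4 were the highest libraries, and replicates 1, 3 and 5 lay within the control-labelled range. The log2 fold change was 0.52 (standard error 0.265, interval −0.056 to 1.10, adjusted p = 0.669, edgeR quasi-likelihood; two-sided exact permutation test, p = 0.175). Without replicate 2 it was 0.20 (interval −0.18 to 0.58), below the 0.21 of *Gpc3*, and without each other library in turn it was 0.44 to 0.65.

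In mutant-labelled replicate 2 both the neuron marker sum and *Gpc2* were highest. Of 9 markers 9 were fitted above 0 by label and 3 had an unadjusted p under 0.05, beside 50.3% and 7.49% of all genes tested. Each had a mean of at least 2.39 CPM in control-labelled libraries. Their sum was 90.7, 134, 154, 59.8 and 132 CPM in control-labelled replicates 1 to 5 and 212, 455, 65.8, 195 and 123 CPM in mutant-labelled ones. The pan-neuronal tubulin *Tubb3* was at 175 CPM in mutant-labelled replicate 2 and at 16.3 to 65.8 CPM in the other libraries. Mutant-labelled replicate 1 had the second highest marker sum and the highest *Nefm*, a neurofilament, at 45.4 CPM, but *Gpc2* of 8.31 CPM. With a neuron score as a covariate, added after the data were seen, the log2 fold change of *Gpc2* was 0.11 (adjusted p = 0.976, edgeR quasi-likelihood; 0.585 to 0.9998 over the alternatives). The source of the *Gpc2* transcript was not tested.

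**Figure D3:**
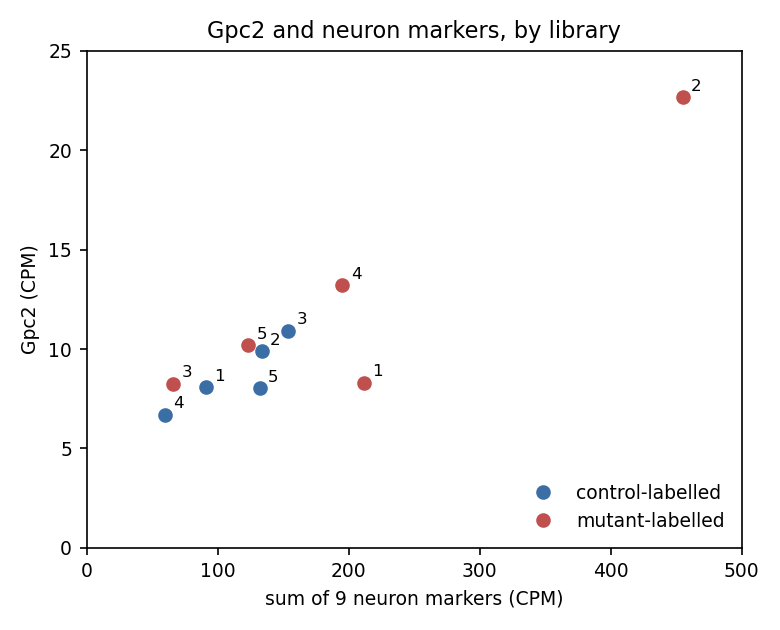
*Gpc2* (CPM) against the summed CPM of 9 neuron markers, each point 1 library, numbered by replicate, control-labelled in blue and mutant-labelled in red. Mutant-labelled replicate 2 lies at the upper right with 455 and 22.7 CPM, and mutant-labelled replicate 1 has 212 CPM of markers with 8.31 CPM of *Gpc2*.

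Among syndecans, *Sdc2*, a mesenchymal syndecan, was at 93.4, 97.4, 96.6, 95.6 and 97.8 CPM in control-labelled replicates 1 to 5 and at 97.9, 85.5, 98.6, 104 and 108 CPM in mutant-labelled ones. All mutant-labelled values but that of replicate 2 were above the highest control-labelled value, though that of replicate 1 only just (97.9 against 97.8 CPM). The log2 fold change was 0.039 (interval −0.093 to 0.17, adjusted p = 0.917, edgeR quasi-likelihood), and 0.092 (interval −0.014 to 0.20, adjusted p = 0.786, the lowest over the alternatives) without replicate 2. Without mutant-labelled replicate 5, the highest library, it was 0.0046. *Sdc1*, known as the syndecan of epithelia and plasma cells, ranged from 91.8 to 95.9 CPM under the control label and from 82.3 to 104.9 CPM under the mutant label, on both sides of the control-labelled range. Its log2 fold change was 0.010 (interval −0.12 to 0.14), or 0.062 without replicate 2.

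In control-labelled libraries the coefficient of variation was 1.86% for *Sdc2* and 2.002% for *Sdc1*, close to the 2.02% and 2.04% that counting error alone gives at their depth, and lower than for all but 0.479% and 0.652% of genes tested. In mutant-labelled libraries it was 8.59% and 8.90%, and without replicate 2 it was 4.68% and 5.74%. A higher coefficient in the mutant-labelled group was seen for 8 of 9 members and for 60.7% of all genes tested, and without replicate 2 for 6 of 9 and 53.3%. The difference in spread was not tested.

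*Sdc3*, the long syndecan of nervous and musculoskeletal tissue, was at 217 CPM in control-labelled replicate 5 and at 265 to 286 CPM in the other control-labelled libraries. Mutant-labelled libraries ranged from 253 to 287 CPM, and the log2 fold change was 0.021 (interval −0.14 to 0.19), or 0.040 without replicate 2. It was the one gene of the 9 with a lower coefficient of variation in mutant-labelled libraries (4.96% against 10.2%). *Sdc4*, a component of focal adhesions, ranged from 49.9985 to 60.9 CPM under the control label and from 45.3 to 59.0 CPM under the mutant label. Its log2 fold change of −0.081 (interval −0.24 to 0.084, adjusted p = 0.843, edgeR quasi-likelihood; two-sided exact permutation test, p = 0.365) was the lowest of the family, and it was −0.027 without replicate 2 and −0.13 without mutant-labelled replicate 5. Osteoblast markers were also fitted lower by label. With their mean log2 CPM as a covariate *Sdc4* was at 0.10, but that score nearly follows the label, so both cannot be told apart. With a neuron score *Sdc4* was at 0.011.

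**Figure D4:**
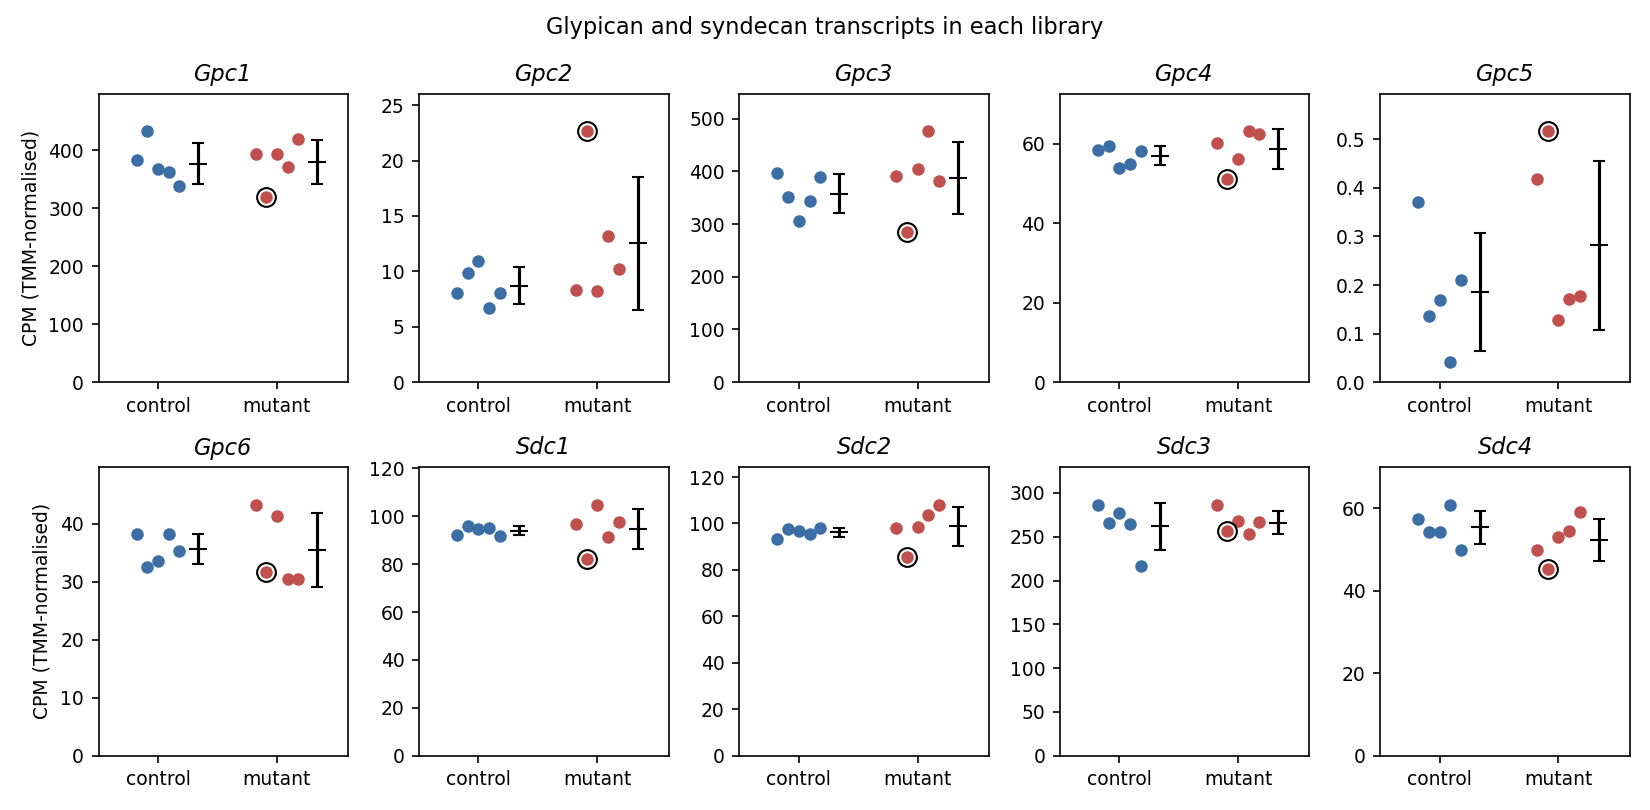
CPM of each gene in 5 control-labelled (blue) and 5 mutant-labelled (red) libraries, in replicate order from left to right, with the mean and SD in black, each axis starting at 0. Mutant-labelled replicate 2 is ringed and is the lowest of the 10 points for 6 genes and the highest for *Gpc2* and *Gpc5*.

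The genes whose log2 CPM was most like each member over the 10 libraries were taken from 8763 other genes at 10 CPM or more. They are a description, since the libraries share dissection, depth and composition and the highest of many coefficients is selected. *Gpc2* was most like *Stmn1* (Pearson's r = 0.987), a tubulin-binding protein abundant in neurons and dividing cells, and *Fbxl16* (0.985), and mutant-labelled replicate 2 is far from the other libraries in it. *Gpc3* was most like *Mfap2* (0.953), a microfibril protein, and *Igfbp4* (0.948), an IGF-binding protein. *Gpc1* was most like *Ptk7* (0.962), a WNT co-receptor of planar cell polarity, and *Igf2r* (0.951). *Gpc4* was most like the actin crosslinker *Actn1* (0.920) and the laminin chain *Lamb1* (0.919), and *Gpc6* most like the matrix protease *Adamts15* (0.965) and the transcription factor *Hic1* (0.943). The nearest gene was *Amotl1* for *Sdc1* (0.968), *Rai14* for *Sdc2* (0.939), *Apaf1* for *Sdc3* (0.904) and *Mrpl17* for *Sdc4* (0.960).

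Genes for the enzymes of the sugar chains, for other proteoglycans, for syndecan partners and for shedding were then read from 9 lists, 81 tested genes in all. By edgeR's quasi-likelihood test 0 of the 81 passed an adjusted threshold of 0.05, and 7 (8.64%), 1 higher and 6 lower by label, had an unadjusted p-value under 0.05, close to the background of 7.49%. Without mutant-labelled replicate 2 there were 6, of which 3 (*Chst11*, *Hgsnat* and *Notum*) were among the 7. The other 4 (*Cd44*, *Chst15*, *Hs3st4* and *Timp3*) no longer passed, and 3 (*Chst12*, *Dse* and *Hs6st1*) came in. With all libraries the median log2 fold change of the 81 was −0.022. Counts of genes above or below 0 in the lists are to be read against the 50.3% of all genes tested that were fitted above 0.

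For chain initiation, 0 of 7 enzymes of the linkage tetrasaccharide had an unadjusted p under 0.05. The xylose kinase *Fam20b*, the most abundant, was at 50.6 CPM under the control label and 49.1 CPM under the mutant label. The same held for 0 of 5 chain polymerization genes, among which *Ext2*, a subunit of the heparan sulfate polymerase, was at 103 and 99.4 CPM. Of 15 genes for sulfotransferases and the epimerase, 12 were fitted above 0 and 3 below, and 1 had an unadjusted p under 0.05. This was *Hs3st4*, a 3-O-sulfotransferase of neurons, at 0.777 to 1.75 CPM in control-labelled libraries, 8.86 CPM in mutant-labelled replicate 2 and 0.789 to 2.51 CPM in the other mutant-labelled libraries. Without replicate 2 its log2 fold change went from 1.29 to 0.42 and it no longer passed, while *Hs6st1*, a 6-O-sulfotransferase, did (0.14, unadjusted p = 0.0362). Of the editing enzymes, 0 of 4 passed, with the extracellular 6-O-endosulfatase *Sulf2* at 330.3 and 361 CPM (log2 fold change 0.13, interval −0.11 to 0.37, and 0.21 without mutant-labelled replicate 2, interval −0.0010 to 0.41).

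Of 8 lysosomal enzymes that break down heparan sulfate, 7 were fitted below 0 and 1 had an unadjusted p under 0.05. This was the acetyltransferase *Hgsnat*, at 37.0 and 33.9 CPM (log2 fold change −0.13, adjusted p = 0.634, and −0.12 without mutant-labelled replicate 2). Among 10 other heparan sulfate proteoglycans, the basement membrane protein perlecan (*Hspg2*) was at 972 and 1013 CPM, and the hyaluronan receptor *Cd44*, whose variant forms carry heparan sulfate, was the 1 gene with an unadjusted p under 0.05, at 152 and 131 CPM (log2 fold change −0.22, adjusted p = 0.653). Without mutant-labelled replicate 2 *Cd44* was at −0.18 (unadjusted p = 0.0966, edgeR quasi-likelihood), and 0 of the 10 passed. Of 15 chondroitin sulfate genes, 2 had an unadjusted p under 0.05. These were the 4-O-sulfotransferase *Chst11*, at 50.05 and 43.2 CPM (log2 fold change −0.21, adjusted p = 0.570), and *Chst15*, at 44.0 and 40.4 CPM (−0.12, adjusted p = 0.631). Without mutant-labelled replicate 2, *Chst15* no longer passed (−0.11, unadjusted p = 0.0647), *Chst11* still did (−0.17), and *Chst12* and *Dse* did so as well, with log2 fold changes of 0.16 and 0.23.

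Of 9 genes for syndecan cytoplasmic partners 0 had an unadjusted p under 0.05, with the actin crosslinker *Actn1* the most abundant at 170.0 and 172 CPM. Among 8 genes that shed syndecans and glypicans or limit shedding, 8 were fitted below 0, and 2 had an unadjusted p under 0.05. *Notum*, a secreted enzyme known to inactivate WNT ligands by removing their lipid, was at 5.78, 5.59, 4.51, 3.88 and 3.47 CPM in control-labelled replicates 1 to 5 and at 2.69, 2.58, 2.74, 3.02 and 3.27 CPM in mutant-labelled ones, with no overlap (log2 fold change −0.70, adjusted p = 0.307). The study named *Notum* among several WNT pathway genes that were lower in the mutant on these libraries, so it is not independent evidence. The metalloprotease inhibitor *Timp3* was at 270.2 and 240.4 CPM (log2 fold change −0.17, adjusted p = 0.653). Without mutant-labelled replicate 2, 6 of the 8 were below 0 and 1 (*Notum*, at −0.66) had an unadjusted p under 0.05, whereas *Timp3*, at −0.15, did not. Adjusted p-values in these paragraphs are from edgeR's quasi-likelihood test over all genes tested.

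**Figure D5:**
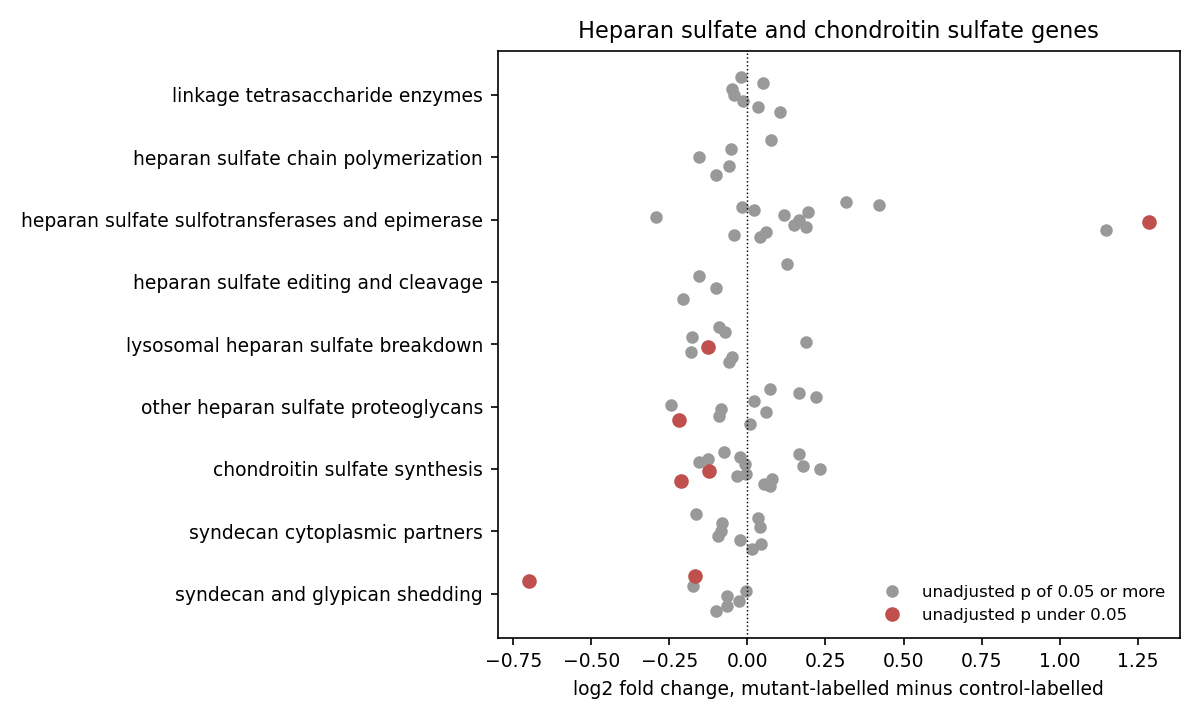
Log2 fold change (mutant-labelled minus control-labelled) of 81 tested genes in 9 lists, each point 1 gene, red where the unadjusted p-value was under 0.05. The points of most lists lie close to 0, *Hs3st4* is at the far right (1.29) and *Notum* at the far left (−0.70).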

How the data were processed

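RNA was read as single ends from a strand-specific kit, and the authors' deposited values are estimated counts for each gene, not scaled between libraries (66.4% are whole numbers, and no gene summed to less than 10). The submitters' processing notes name mm10 and Partek; the aligner, counting tool and strand setting are not given in the sources used here. Of 22533 symbols found in GENCODE M21 (GRCm38), 22290 had its chromosome, start and end, the table's stop being 1 base higher, and M21 coordinates are printed. Columns were matched to samples by library name, and 0 columns were left over.

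Estimated counts were rounded and compared, mutant minus control, by edgeR 4.0.16 (R 4.3.3) with TMM normalization, its expression filter (16267 genes tested, 6813 left out) and the quasi-likelihood test, fitted to the 10 libraries without covariates. P-values were adjusted over all genes tested by Benjamini-Hochberg, threshold 0.05. Standard errors are the log2 fold change over the square root of F, and 95% intervals use the total degrees of freedom. Log2 CPM used a prior count of 0.5. Exact permutation tests were two-sided over 252 groupings (smallest p, 0.00794). The common biological coefficient of variation was 18.9%. Alternatives used limma 3.58.1 and DESeq2 1.42.0.

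The study describes littermate pairs, but the labels do not say which libraries form a pair, nor whether each was a single embryo, so p-values measure the spread between these libraries. Members, lists and tests were chosen with earlier results of these data known. Named genes were the members, up to 3 genes per list with an unadjusted p under 0.05 (otherwise the most abundant) and the most correlated genes; *Hspg2*, *Tubb3*, *Nefm*, *Col1a1*, *Col1a2*, *Ankmy1*, *Chst12*, *Dse* and *Hs6st1* were named after their values were seen.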

Additional observations from a re-analysis of the deposited data

How the results depend on the processing

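The count of members with an adjusted p under 0.05 was 0 in each of the 22 alternatives, 1 of which raised the threshold to 0.1. The count over all genes was 97 with DESeq2's Wald test and 1 with library size alone, with *Xist*, with an osteoblast score and with the replicate block, and ran from 1 to 6 over fits that each left out 1 library (6 without mutant replicate 2, and 1 without control replicate 3, 4 or 5 or mutant replicate 1, 3, 4 or 5). The count of members with an unadjusted p under 0.05 was 1 (*Gpc2*) with DESeq2's Wald test and 0 to 1 when 1 library was left out, being 1 without mutant replicates 1 and 3 (*Gpc2*) and without mutant replicate 2 (*Gpc3*). Non-overlapping members numbered 0 to 1. With longest transcripts 6 genes kept their place in the order of levels.

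*Gpc3* and *Gpc4* kept their direction in all 21 alternatives for their fold changes. *Gpc2*, with the largest fitted change in the main comparison, kept its direction in 20 of 21. The other 6 members have fitted changes near 0, and each changed sign in at least 1 alternative. With library size alone they were −0.036 for *Gpc1*, −0.035 for *Sdc1*, −0.0026 for *Sdc2* and −0.016 for *Sdc3*. With an osteoblast score, which nearly follows the label (8.82 to 9.18 against 8.60 to 8.86) so that both cannot be told apart, they were −0.20 for *Gpc2*, 0.12 for *Gpc6* and 0.10 for *Sdc4*, and with a neuron score 0.054 for *Gpc6* and 0.011 for *Sdc4*. *Gpc6* was 0.00041 with DESeq2's Wald test, 0.0014 with its size factors and 0.0021 with at least 10 counts in every library. Leaving out 1 library gave 0.20 to 0.65 for *Gpc2*, 0.039 to 0.21 for *Gpc3*, 0.018 to 0.093 for *Gpc4*, 0.0046 to 0.092 for *Sdc2*, −0.13 to −0.027 for *Sdc4*, −0.029 to 0.072 for *Gpc1*, −0.078 to 0.051 for *Gpc6*, −0.021 to 0.062 for *Sdc1* and −0.033 to 0.062 for *Sdc3*. The causes were not tested.

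Libraries with the same replicate number did not deviate together (correlations across genes from −0.21 to 0.14). This gives no sign of pairs by number but cannot exclude them, since paired libraries need not deviate together over all genes. With the replicate block 0 members were called at an adjusted or unadjusted 0.05. For *Gpc5*, at 1 to 13 counts per library, counting error alone gives a coefficient of variation of 45.6% under the control label, beside a measured 65.0%. Under the mutant label these were 38.9% and 61.6%. For *Gpc2*, counting gives 6.69% beside a measured 19.2% under the control label (164 to 288 counts). Under the mutant label (179 to 570 counts) it gives 5.81% beside 48.0%, with 23.2% measured without replicate 2.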

Other observations

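*Gpc3* and *Gpc4* lie on the X chromosome, and the sex of the embryos is not labelled. *Xist*, the RNA of the inactive X, was at 366 to 563 CPM in 6 libraries and at 0.765 to 3.55 CPM in 4, with 2 of these 4 under each label. With *Xist* as a covariate the log2 fold change was 0.097 for *Gpc3* and 0.029 for *Gpc4*, and the edgeR quasi-likelihood test gave adjusted p-values that were 0.875 and 0.931 (over the alternatives, 0.685 to 0.9998 for *Gpc3* and 0.818 to 0.9998 for *Gpc4*).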
